A study of Homo sapiens with 12 samples.

Results

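PRMT5, the arginine methyltransferase targeted by the hairpin of this study, and its partners WDR77, CLNS1A, RIOK1 and COPRS were followed through all 12 libraries. The 5 genes were taken by name from both count tables, which list 63299 genes, and all 5 were among the 17191 genes with enough reads to be tested. The cells were LNCaP-shPRMT5, a derivative of LNCaP, an androgen-sensitive line of human prostate cancer, with a hairpin against PRMT5 that doxycycline switches on. All 4 groups carried the hairpin construct, were grown in the same serum-containing medium and held 3 libraries each. Non-irradiated controls (Dox-, 0 Gy) received neither agent, and non-irradiated knockdowns (Dox+, 0 Gy) received doxycycline at 1 µg/mL every 48 h. Irradiated controls (Dox-, 2 Gy) received 2 Gy alone, and irradiated knockdowns (Dox+, 2 Gy) received both doxycycline and 2 Gy. The irradiated cultures were harvested 24 h after the dose. Doxycycline and the hairpin were always given together, so their effects cannot be told apart, and no group with another hairpin was analysed here. The labels do not say whether replicates came from separate cultures, so each p-value measures the spread between these libraries, which may be technical.

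PRMT5 places symmetric dimethyl marks on arginines and works as a stable complex with WDR77 (also called MEP50), the WD-repeat subunit that holds substrates and is required for full activity. The complex is directed by exchangeable adaptors. CLNS1A (pICln) brings in the Sm proteins of the spliceosome, RIOK1 binds at the same place as CLNS1A and brings in nucleolin, and COPRS recruits the complex to histones in the nucleus. Their messenger RNAs were counted here, while protein, complex assembly and arginine methylation were not measured.

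The genes lie on 5 chromosomes, at coordinates given by the deposited tables in GRCh38. PRMT5 (ENSG00000100462.15) spans chr14:22920511-22929585 on the minus strand. WDR77 (ENSG00000116455.13) spans chr1:111439890-111449376 on the minus strand. CLNS1A (ENSG00000074201.8) spans chr11:77514936-77637805 on the minus strand, RIOK1 (ENSG00000124784.8) spans chr6:7389496-7418037 on the plus strand, and COPRS (ENSG00000172301.10) spans chr17:31851864-31859337 on the minus strand. All are protein-coding in GENCODE 29. The start regions of PRMT5 and WDR77, the enzyme and its obligate partner, are shown because each holds a motif 3 times in the 250 bases before the RefSeq start (GRCh38.p14, all 5 genes matched). The motifs searched, on both strands, were the CCAAT box bound by the factor NF-Y (ATTGG when read on the other strand), the E-box CACGTG, which was found in none of the 5 windows, and the palindrome TCGCGA. They were chosen after the windows had been seen. PRMT5 carries ATTGG at 178, 138 and 30 bases before its start, and each of these motifs, in capitals in the stretches below (read 5′ to 3′ along the gene), falls in an annotated exon of a PRMT5 transcript.
PRMT5, chr14:22929543-22929571: ccagaccctgagATTGGtggatccatgcc
PRMT5, chr14:22929503-22929531: tgcagcccgcggATTGGcaggaaaagcca
PRMT5, chr14:22929395-22929423: tttgactttgtgATTGGctactagtatca

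Of 35116 RefSeq promoter windows of the same length, 32.0% held CCAAT on either strand at least once and 2.93% held it 3 or more times. WDR77 carries TCGCGA, which is its own reverse complement, at 187, 124 and 41 bases before its start. All 3 motifs lie in exons of ATP5F1 (ATP5PB in GENCODE 29), the gene of a mitochondrial ATP synthase subunit on the opposite strand, and 1 of them also lies in a WDR77 exon.
WDR77, chr1:111449432-111449461, motif in an exon of ATP5PB: cgctcacaagtcTCGCGAgatgaaaatttt
WDR77, chr1:111449369-111449398, motif in an exon of ATP5PB: taaaaaaaattaTCGCGAgaagagtcaagt
WDR77, chr1:111449286-111449315, motif in exons of ATP5PB and WDR77: tagaagcaattcTCGCGAgaagtagagttg

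TCGCGA occurred in 2.64% of the windows, and in 6 of the 35116 it occurred 3 or more times. None of the 3 motifs matched in the windows of CLNS1A, RIOK1 or COPRS, which says only that these letters are not there. GC content of the windows was 55.6% for PRMT5, 51.2% for WDR77, 51.6% for CLNS1A, 63.6% for RIOK1 and 83.6% for COPRS, against a median of 58% over all windows. These matches describe sequence only, and no binding was measured.

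Total counts ran from 14801939 to 33158865 per library, and a library's count of a member was between 361 (RIOK1) and 6353 (CLNS1A). The cells carried the labelled identity: all 9 luminal prostate markers were present, with summed levels of 6929 to 10421 CPM per library (CPM are counts divided by the scaled library total). Of the markers of other cell types, KRT5, KRT14, TP63 and KRT15 (basal) summed to 0.732 to 9.98 CPM, and the 6 fibroblast markers to 12.5 to 27.7 CPM with COL1A2 at 0 in every library. For both lists the library numbered 1 was the highest of each group. Its basal sums were 6.47 (control) and 9.98 CPM (knockdown) without irradiation and 4.96 and 3.34 CPM with it, and no other library was above 1.38 CPM. The 5 leukocyte markers summed to 0.0379 to 0.551 CPM with CD3E at 0, and the 4 neuroendocrine markers, mostly ENO2, to 25.5 to 95.9 CPM. Both irradiated libraries numbered 1 stood apart from their replicates. The chi-square per gene against the other replicates was 105 and 129 for the irradiated control and 56.2 and 74.5 for the irradiated knockdown. All other replicate pairs lay between 8.96 and 29.6. Within that range, pairs with the library numbered 1 were also the higher ones of each non-irradiated group. They reached 18.2 in controls, against 11.3 between libraries 2 and 3, and 29.6 in knockdowns, against 13.6. The non-irradiated libraries numbered 1 were left out singly, not together. Values without 1 or both irradiated libraries numbered 1 stand beside several fold changes below, while TPM ratios and correlations are given with all libraries only.

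PRMT5 messenger RNA was cut to 15.7% of its control level without irradiation and to 13.8% with it. The 3 non-irradiated control libraries held 186, 190 and 198 CPM, with library totals scaled by TMM (trimmed mean of M-values, a library scaling that assumes most genes are unchanged). The 3 non-irradiated knockdown libraries held 26.6, 30.8 and 32.8 CPM. Irradiated controls held 230, 187 and 187 CPM and irradiated knockdowns 31.3, 26.9 and 24.9 CPM. Every knockdown library lay below every control library in both states, so the targeted gene matched the labels in all 12. The log2 fold change was -2.67 ± 0.13 (SE; edgeR quasi-likelihood test, adjusted p = 2.49e-06) without irradiation and -2.86 ± 0.13 (adjusted p = 1.20e-06) with irradiation, and PRMT5 had the smallest p of all tested genes in both. The transcript was lowered but not absent: the knockdown libraries still gave at least 483 counts. Bulk libraries cannot tell fewer cells with PRMT5 RNA from less of it in each cell, here or for any gene below.

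**Figure D1:**
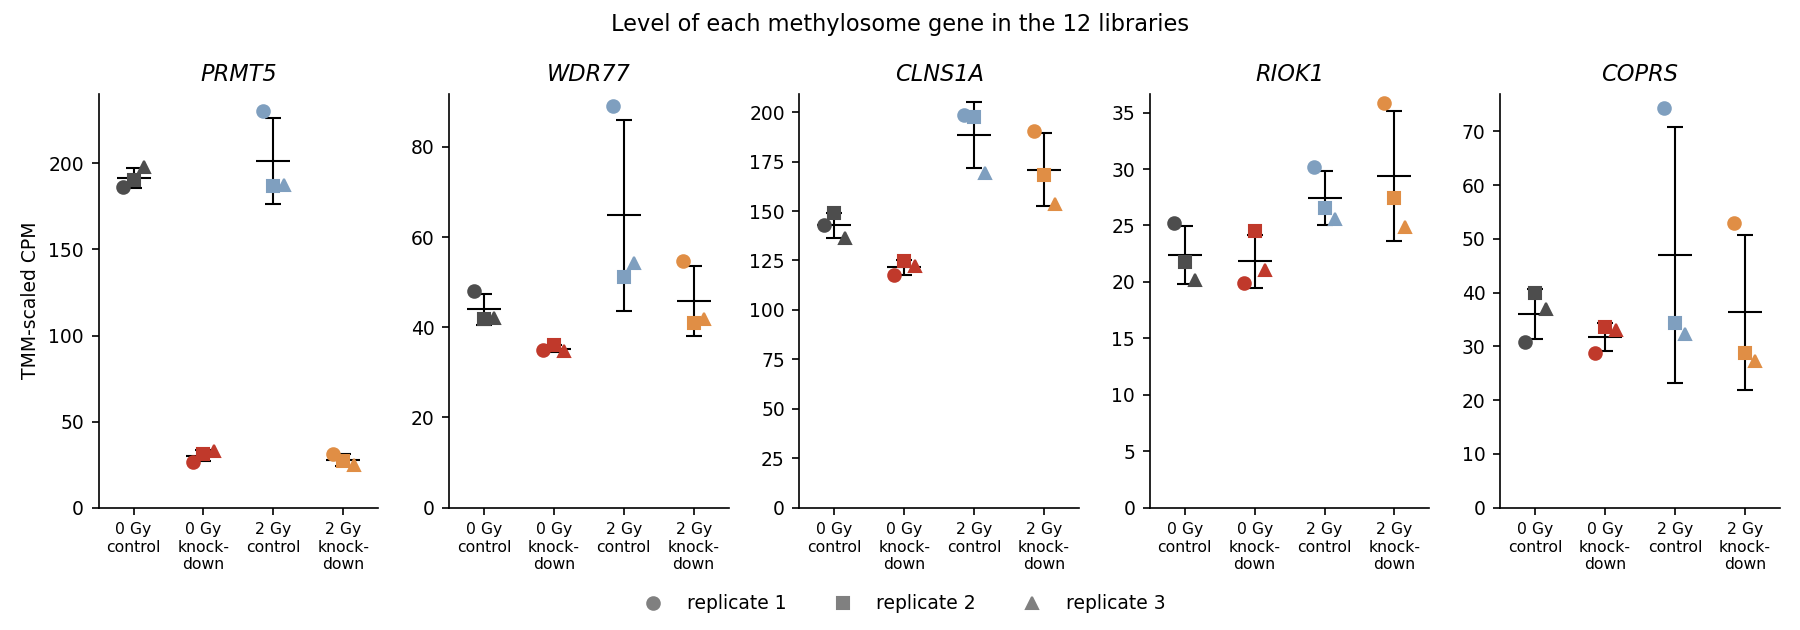
TMM-scaled CPM of PRMT5, WDR77, CLNS1A, RIOK1 and COPRS in each library, by group, with the replicate number as the marker shape and the group mean and SD. PRMT5 falls from between 186 and 230 CPM in controls to between 24.9 and 32.8 CPM in knockdowns, and the irradiated libraries numbered 1 are the highest of their groups for all 5 genes.

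WDR77, the obligate partner, was lower in the knockdown in both states, by far less than PRMT5. Non-irradiated controls held 48.0, 41.8 and 42.1 CPM and non-irradiated knockdowns 34.9, 36.1 and 34.7 CPM. Irradiated controls held 89.1, 51.1 and 54.2 CPM and irradiated knockdowns 54.8, 40.9 and 41.9 CPM. The groups did not overlap without irradiation, and with it they overlapped through the knockdown library numbered 1, which lay above 2 of the 3 controls. Knockdown means were 80.1% and 70.8% of control. In the model with 1 mean per group, the log2 fold changes of -0.32 ± 0.20 (SE; edgeR adjusted p = 0.433) and -0.50 ± 0.19 (adjusted p = 0.437) did not pass the threshold of 0.05, and their mean was -0.41 (95% interval -0.71 to -0.11, adjusted p = 0.0970). Without the irradiated control numbered 1 the change with irradiation was -0.20 (adjusted p = 0.472) and the mean -0.26 (adjusted p = 0.0694).

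Libraries with the same replicate number deviated together within each irradiation state, with correlations of 0.233 to 0.775 for the 6 pairs of control and knockdown. With the replicate number as a block, WDR77 fell by 0.31 on the log2 scale without irradiation (edgeR adjusted p = 0.0181) and by 0.47 with it (adjusted p = 0.00545). The blocked mean was -0.39 (95% interval -0.52 to -0.26, adjusted p = 0.000534). WDR77 was lower in 6 of 6 pairs, by between 0.21 and 0.70. Without both irradiated libraries numbered 1, a setting chosen after seeing the data, the blocked change with irradiation was -0.35 (adjusted p = 0.0235) and the blocked mean -0.33 (adjusted p = 0.000975).

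Calls with the block were common across the transcriptome. Without the block 1.54% of tested genes were called for the knockdown without irradiation, 0.297% with irradiation and 6.52% for the mean of both. With the block these shares were 27.8%, 11.5% and 34.3%. Of the 5 methylosome genes, PRMT5 alone was called without the block in each of these 3 comparisons. With the block, 3 of 5 were called lower without irradiation (PRMT5, WDR77 and CLNS1A), 3 with irradiation (PRMT5, WDR77 and COPRS) and 4 for the mean (all except RIOK1), and none was called higher. Without irradiation 31.1% of all tested genes showed no overlap between the groups, with irradiation 13.5% did, and 6.45% did so in the same direction in both states. PRMT5, WDR77 and CLNS1A showed no overlap without irradiation, and PRMT5 alone showed none with it.

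**Figure D2:**
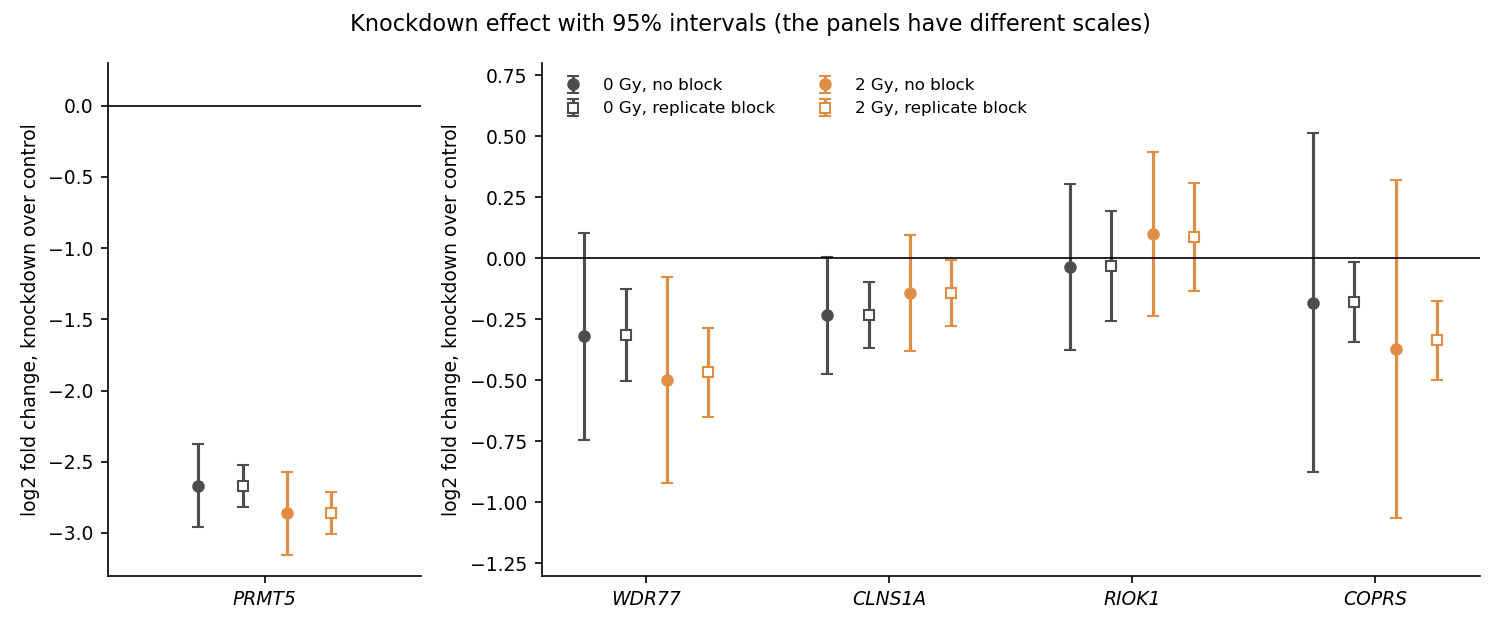
Log2 fold change of knockdown over control with its 95% interval, without and with irradiation, from the model with 1 mean per group (filled) and with the replicate block (open); PRMT5 has a panel and scale of its own. PRMT5 lies near -2.67 and -2.86, while the 4 partners lie between -0.50 and 0.10, with shorter intervals under the block.

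CLNS1A, the Sm-protein adaptor, was lower by a small amount. Non-irradiated controls held 143, 149 and 137 CPM and non-irradiated knockdowns 118, 125 and 122 CPM, with no overlap. Irradiated controls held 199, 197 and 169 CPM and irradiated knockdowns 191, 168 and 154 CPM, which overlapped. Knockdown means were 85.0% and 90.7% of control. The log2 fold change was -0.23 ± 0.11 (SE; edgeR adjusted p = 0.296) without irradiation and -0.14 ± 0.11 (adjusted p = 0.758) with it, and the mean was -0.19 ± 0.08 (adjusted p = 0.171). With the block, CLNS1A fell by 0.23 without irradiation (adjusted p = 0.0160) and by 0.19 in the mean (adjusted p = 0.00622), while the change with irradiation of -0.14 did not pass (adjusted p = 0.155). Without both irradiated libraries numbered 1 the blocked change with irradiation was -0.19 (adjusted p = 0.0930), and the unblocked one ranged from -0.24 without the irradiated knockdown numbered 1 to -0.07 without the irradiated knockdown numbered 3. CLNS1A was lower in 6 of 6 pairs, by 0.06 to 0.28.

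RIOK1, the adaptor that competes with CLNS1A, showed no detectable change. Non-irradiated controls held 25.2, 21.8 and 20.2 CPM and knockdowns 19.9, 24.5 and 21.0 CPM. Irradiated controls held 30.2, 26.6 and 25.6 CPM and knockdowns 35.9, 27.4 and 24.8 CPM. The groups overlapped in both states, and RIOK1 was lower in 2 pairs and higher in 4. The mean log2 fold change was 0.03 (95% interval -0.21 to 0.27; edgeR adjusted p = 0.901), which covers changes from 0.866 to 1.21 times the control level. The blocked value was also 0.03 (95% interval -0.13 to 0.19; adjusted p = 0.797). Without both irradiated libraries numbered 1 the mean was -0.02 (adjusted p = 0.911).

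COPRS, the nuclear histone adaptor, varied most between replicates after irradiation. Non-irradiated controls held 30.9, 40.0 and 37.0 CPM and knockdowns 28.7, 33.5 and 33.0 CPM. Irradiated controls held 74.4, 34.3 and 32.3 CPM and knockdowns 53.0, 28.7 and 27.2 CPM. The library numbered 1 was thus the highest of each irradiated group, and its coefficients of variation there were 50.5% and 39.8%. The log2 fold changes of -0.18 ± 0.32 (SE; edgeR adjusted p = 0.821) and -0.37 ± 0.32 (adjusted p = 0.792) did not pass. The latter became 0.13 (adjusted p = 0.823) without the irradiated control numbered 1, and the mean went from -0.28 (adjusted p = 0.518) to -0.03 (adjusted p = 0.921). Within pairs the order was uniform, with COPRS lower in 6 of 6 by 0.11 to 0.49. With the block it fell by 0.34 with irradiation (adjusted p = 0.0154) and by 0.26 in the mean (adjusted p = 0.00318), and the change without irradiation was -0.18 (adjusted p = 0.1005). Leaving out both irradiated libraries numbered 1 ended the blocked call with irradiation (-0.25, adjusted p = 0.0710) and left the blocked mean at -0.22 (adjusted p = 0.00855).

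**Figure D3:**
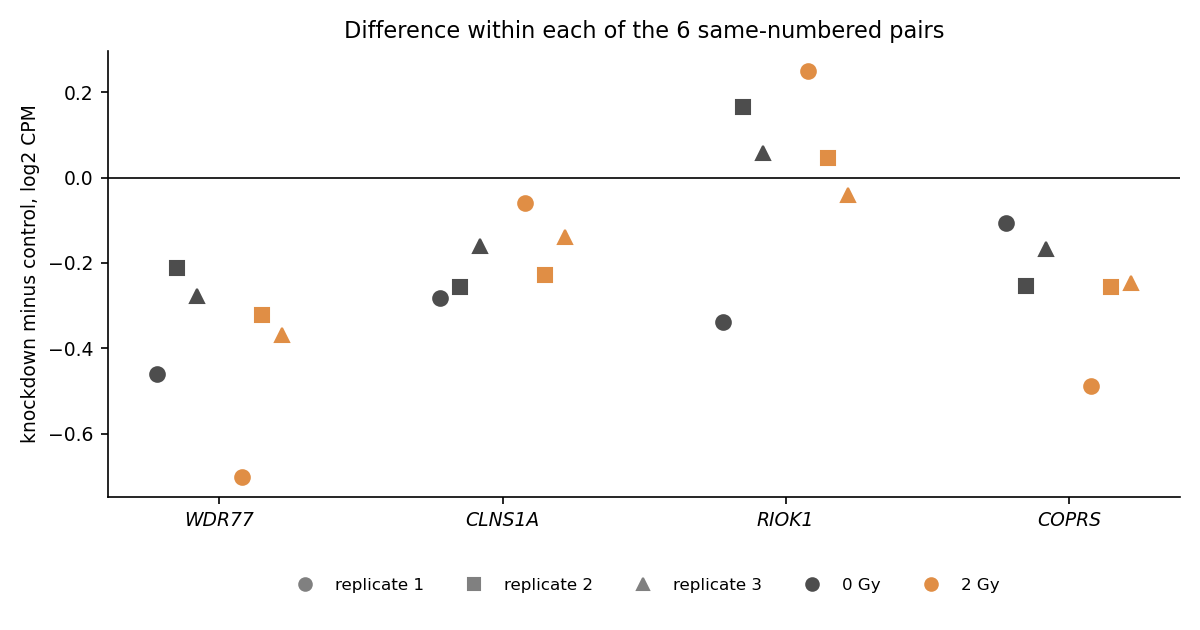
Knockdown minus control in log2 CPM for WDR77, CLNS1A, RIOK1 and COPRS within each of the 6 pairs of libraries with the same number, by irradiation state. All 6 points lie below 0 for WDR77, CLNS1A and COPRS, while RIOK1 has 2 points below 0 and 4 above.

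Of all tested genes, 14.4% were lower in all 6 pairs, as WDR77, CLNS1A, COPRS and PRMT5 were. The levels were also tested over samples as single values. An exact 2-sided permutation test that relabelled libraries within each irradiation state (400 relabellings, smallest possible p = 0.005) gave p = 0.005 for PRMT5, 0.015 for WDR77, 0.02 for CLNS1A, 0.36 for COPRS and 0.845 for RIOK1. That test did not use the pairing by replicate number. An exact permutation test by sign flips of the 6 pairs (64 flips) was added after the data were seen. This exact permutation test gave p = 0.03125, its smallest possible value, for PRMT5, WDR77, CLNS1A and COPRS, and p = 0.781 for RIOK1. Any gene lower in all 6 pairs, as 14.4% were, reaches that smallest value. The test is 2-sided, so a gene higher in all 6 pairs reaches it too, and the share of those is not given. The p-values of both tests are unadjusted and belong to a family of 6 quantities, the sixth being a ratio given below.

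Proliferation genes differed between the pairs and are given beside these results. The summed level of 12 proliferation genes was 201 to 463 CPM in non-irradiated controls and 422 to 798 CPM in non-irradiated knockdowns. It was 512 to 1041 CPM in irradiated controls and 368 to 719 CPM in irradiated knockdowns. The mean log2 difference of the list between knockdown and control was -0.33, 2.47 and 1.98 in the non-irradiated pairs numbered 1 to 3 and -0.59, -0.73 and -0.66 in the irradiated ones. WDR77, CLNS1A and COPRS were lower in pairs where the list was higher and in pairs where it was lower. The part of proliferation in their levels was not tested.

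The difference between the knockdown effects with and without irradiation did not pass the test for any member, and each 95% interval included 0. In the model with 1 mean per group it was -0.19 (95% interval -0.58 to 0.19) for PRMT5, -0.18 (-0.78 to 0.42) for WDR77 and 0.09 (-0.24 to 0.43) for CLNS1A. For RIOK1 it was 0.14 (-0.34 to 0.61) and for COPRS -0.19 (-1.17 to 0.79). No member was called, and 0% of all genes were called by edgeR, with 350 at an unadjusted p under 0.05 and 1 called by DESeq2. With the block the intervals were narrower and still included 0, at -0.39 to 0.01 for PRMT5, -0.41 to 0.11 for WDR77, -0.10 to 0.28 for CLNS1A, -0.20 to 0.43 for RIOK1 and -0.39 to 0.07 for COPRS (adjusted p from 0.430 to 0.770).

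Levels were compared between genes only as TPM, which divides counts by gene length and then scales each library to the same sum. In non-irradiated controls PRMT5 was the highest, at 216, 205 and 224 TPM. CLNS1A followed at 125, 121 and 117 TPM, then COPRS at 86.6, 104 and 102 TPM. WDR77 held 68.8, 55.7 and 59.0 TPM and RIOK1 31.3, 25.2 and 24.6 TPM. Neighbours in this order did not overlap, so by this measure the enzyme stood above its own obligate subunit and above each adaptor. The order rests on the deposited lengths, which cover all annotated exons, such as 3467 bases for PRMT5 and 4592 for CLNS1A. Lengths of the transcripts made in these cells were not measured. The deposited lengths also include positions shared with other genes, 36.5% of those of WDR77 and 27.1% of those of PRMT5. How reads on shared positions were counted is not given, and its part in the order was not tested. Over all 12 libraries the mean levels of PRMT5 and CLNS1A lay at the 92.5th and 92.7th percentile of tested genes, COPRS at the 90.0th, WDR77 at the 82.8th and RIOK1 at the 65.6th.

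In the knockdowns PRMT5 dropped from the top of this order to its lower end. Without irradiation it held 28.8, 33.2 and 35.6 TPM, below WDR77 (46.7, 47.9 and 46.6 TPM) and above RIOK1 (23.1, 28.2 and 24.5 TPM), again with no overlap of neighbours. CLNS1A led at 96.2, 101 and 100 TPM, followed by COPRS at 75.2, 87.3 and 86.6 TPM. With irradiation PRMT5, at 26.7, 26.3 and 23.8 TPM, overlapped RIOK1, at 32.8, 28.7 and 25.5 TPM. In irradiated controls COPRS, between 77.3 and 150 TPM, overlapped both CLNS1A, between 125 and 148, and WDR77, between 62.5 and 91.9.

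**Figure D4:**
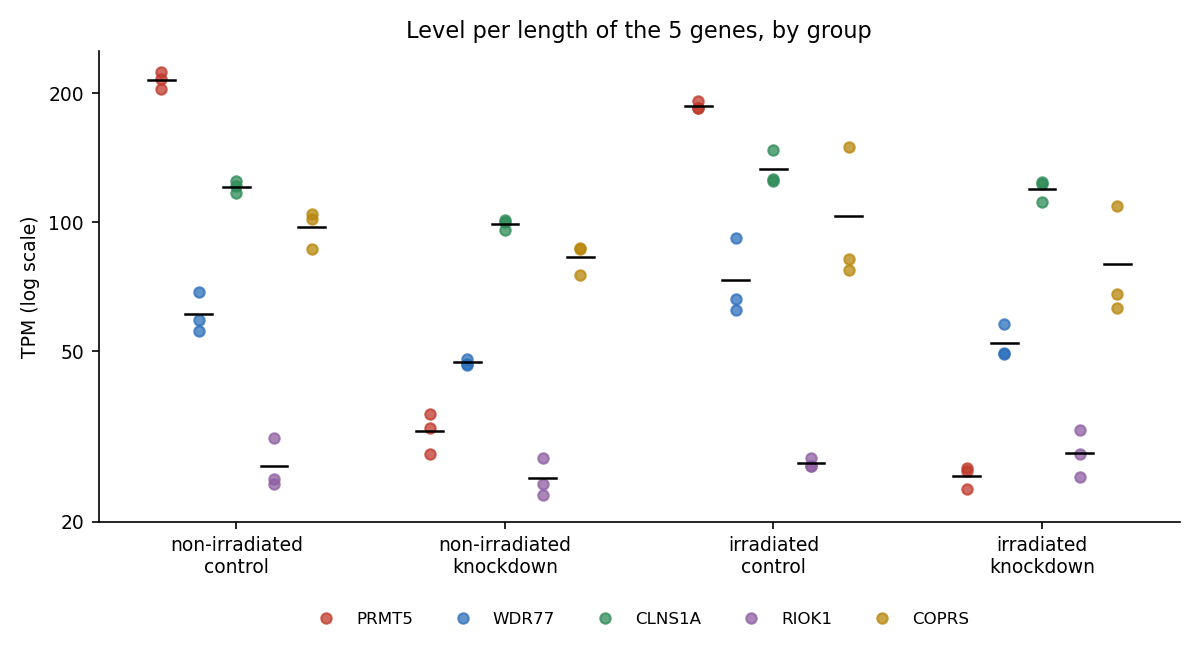
TPM of the 5 genes in each library on a log axis, by group, with a bar at each group mean. PRMT5 is the highest of the 5 genes in both control groups, at means of 215 and 187 TPM, and lies at means of 32.6 and 25.6 TPM in the knockdowns, near RIOK1.

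The balance between enzyme and partner transcripts changed accordingly. The TPM ratio of PRMT5 to WDR77 was 3.54 ± 0.353 (SD, n = 3) in non-irradiated controls and 0.692 ± 0.0741 in non-irradiated knockdowns. With irradiation it was 2.61 ± 0.461 in controls and 0.492 ± 0.0365 in knockdowns. WDR77 RNA was therefore in excess of PRMT5 RNA in every knockdown library and below it in every control library. The 3 adaptors together stood at 1.14 ± 0.0713 times PRMT5 in non-irradiated controls and 6.40 ± 0.425 times in non-irradiated knockdowns. With irradiation they stood at 1.40 ± 0.164 times in controls and 8.90 ± 0.881 times in knockdowns. These are ratios of transcripts that rest on the same deposited lengths, shared positions included, and protein ratios were not measured.

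Between the competing adaptors the ratio stood slightly further toward RIOK1 in the knockdowns. The ratio of RIOK1 to CLNS1A was 0.250, 0.207 and 0.210 in non-irradiated controls and 0.240, 0.278 and 0.244 in non-irradiated knockdowns, which overlapped. With irradiation it was 0.215, 0.191 and 0.214 in controls and 0.267, 0.231 and 0.229 in knockdowns, with no overlap. Of single tested genes 13.5% showed no overlap there, and no such share is given for ratios. The ratio is built from the RIOK1 and CLNS1A levels above and is not a separate observation. The mean log2 difference was 0.21 (0.20 without and 0.23 with irradiation), with p = 0.015 in the exact permutation test within irradiation states. The ratio was higher in 5 of 6 pairs, with p = 0.0625 by exact sign flips of the pairs, a test added after the data were seen. Leaving out each library in turn gave differences of 0.18 to 0.26 and exact p-values of 0.005 to 0.04. Those p-values came from fewer relabellings and from groups of unequal size, so they cannot be set against the 0.015. COPRS to CLNS1A, at 0.807 ± 0.0997 against 0.836 ± 0.0471 without irradiation, and 0.790 ± 0.357 against 0.668 ± 0.193 with it, overlapped in both states (SD, n = 3).

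Irradiated libraries were deposited in a table of their own, so irradiation and anything else that differed between the tables cannot be told apart. All 4 partners had higher mean TMM-scaled levels in irradiated libraries, although in TPM COPRS was not higher in the knockdowns (means of 83.0 and 80.1 TPM). The sign of the PRMT5 difference depended on the library scaling. In controls the log2 difference was 0.56 ± 0.19 for WDR77 (SE; edgeR adjusted p = 0.130), and 0.26 (adjusted p = 0.409) without the irradiated control numbered 1. It was 0.40 ± 0.11 for CLNS1A (adjusted p = 0.0758), 0.29 ± 0.16 for RIOK1 (adjusted p = 0.287) and 0.38 ± 0.32 for COPRS (adjusted p = 0.490). For PRMT5 it was 0.07 ± 0.12 (adjusted p = 0.750), and -0.039 without the irradiated control numbered 1. In TPM, which were not scaled by TMM, PRMT5 stood lower after irradiation, with control means of 215 ± 9.64 and 187 ± 4.14 TPM (SD, n = 3). None of the 5 was called in controls, where 2.26% of all tested genes were. In knockdowns the difference was 0.38 ± 0.19 for WDR77 (adjusted p = 0.288), 0.43 ± 0.16 for RIOK1 (adjusted p = 0.146), 0.19 ± 0.32 for COPRS (adjusted p = 0.767) and -0.12 ± 0.13 for PRMT5 (adjusted p = 0.626). Without the irradiated knockdown numbered 1 WDR77 stood at 0.23 (adjusted p = 0.615) and PRMT5 at -0.22 (adjusted p = 0.470).

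CLNS1A rose in irradiated knockdowns by 0.49 ± 0.11 (SE; edgeR adjusted p = 0.0347), the 1 call among the 5 genes, where 3.58% of all tested genes were called. Its levels were 118, 125 and 122 CPM without and 191, 168 and 154 CPM with irradiation, with no overlap. The call ended at 0.34 (adjusted p = 0.0655) when libraries were scaled by their totals only, and at an almost equal 0.50 (adjusted p = 0.0762) without the filter on low counts. It also ended when any 1 of 5 of the 6 libraries was left out. Without the non-irradiated knockdowns numbered 1, 2 or 3 the adjusted p was 0.0929, 0.120 or 0.106, and without the irradiated knockdowns numbered 1 or 2 it was 0.112 or 0.118. Without the irradiated knockdown numbered 3 it was 0.0480. In controls DESeq2 called CLNS1A (0.40, adjusted p = 0.0106), which edgeR did not.

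In TMM-scaled CPM, in controls 27.6% of all tested genes showed no overlap between irradiated and non-irradiated libraries, and WDR77, CLNS1A and RIOK1 were among them. In knockdowns 29.8% did, and WDR77, CLNS1A and RIOK1 were again among them. In TPM all 3 overlapped in controls, where RIOK1 had means of 27.0 and 27.4 TPM, and RIOK1 overlapped in knockdowns. The scaling mattered for all of these: with library totals only, the median of all tested genes shifted by -0.15 in both comparisons. The share of called genes that were higher dropped from 61.2% to 27.7% in controls and from 60.8% to 26.5% in knockdowns. With that scaling PRMT5 stood at -0.09 in controls, against 0.07 with TMM, and the 4 partners stayed higher, at 0.39 for WDR77, 0.24 for CLNS1A, 0.13 for RIOK1 and 0.21 for COPRS. The COPRS difference in controls became -0.12 (adjusted p = 0.876) without the irradiated control numbered 1, and in knockdowns -0.18 (adjusted p = 0.815) without the irradiated knockdown numbered 1.

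**Figure D5:**
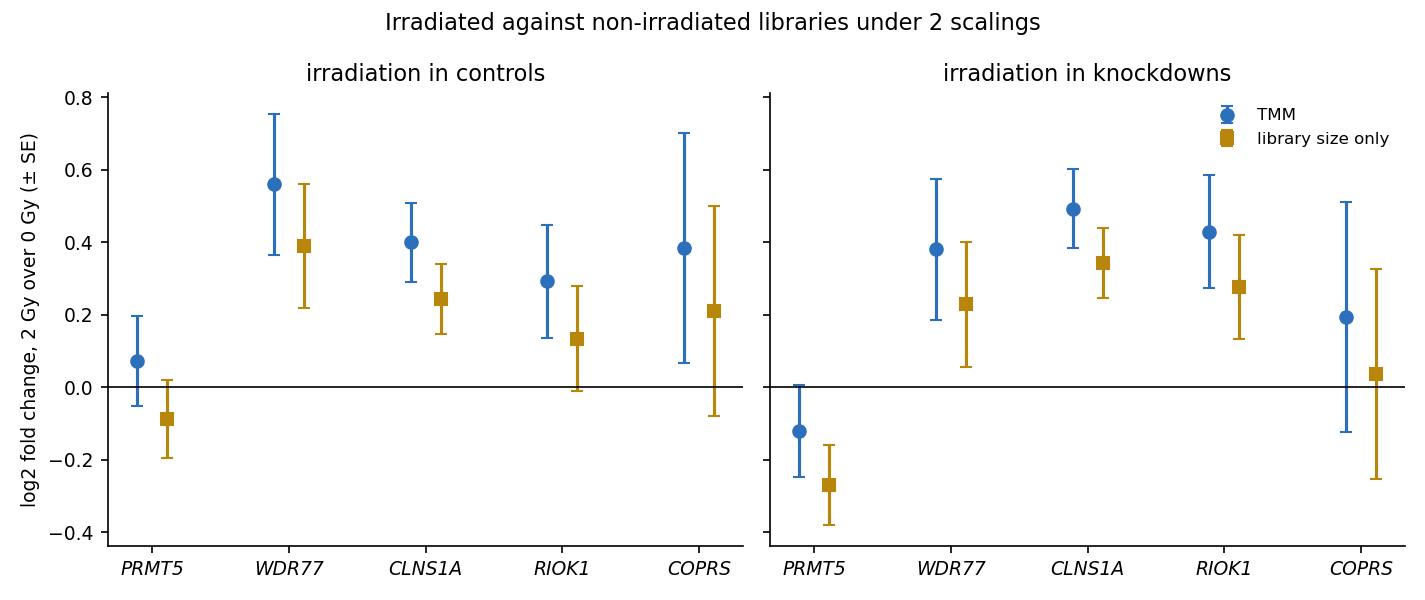
Log2 fold change (± SE) of irradiated over non-irradiated libraries for the 5 genes, in controls and in knockdowns, with TMM scaling and with scaling by library totals only. PRMT5 lies at 0.07 and -0.09 in controls under the respective scalings, and the 4 partners lie above 0 under both.

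Part of the sequence counted for some members also belongs to other genes, and the labels state neither the strand nor the multi-mapping setting of the counting. Of the exon positions of WDR77, 12.5% are shared with ATP5F1 on the opposite strand, which had 3932 to 11073 counts per library, and 24.0% with RP11-552M11.4 on the same strand, which had 11 to 38. ATP5F1 itself differed by -0.02 and -0.04 on the log2 scale between knockdown and control (edgeR adjusted p = 0.962 and 0.980), against -0.32 and -0.50 for WDR77. With irradiation ATP5F1 stood higher by 0.42 in controls and 0.41 in knockdowns (adjusted p = 0.142 and 0.157), beside the 0.56 and 0.38 of WDR77, and the part of shared reads in the latter was not tested. PRMT5 shares 27.1% of its exon positions with its antisense gene PRMT5-AS1, which had at most 7 counts in a library. RIOK1 shares 7.66% with CAGE1 on the opposite strand, which had 6 to 18 counts, and CLNS1A and COPRS share none.

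Pearson's r of log2 CPM over the 12 libraries is given as a description, since the libraries share scaling and group. Among the 6 pairs of partners it ran from 0.55 between RIOK1 and COPRS to 0.81 between WDR77 and CLNS1A and between CLNS1A and RIOK1. It was 0.57, 0.37, -0.02 and 0.38 between PRMT5 and WDR77, CLNS1A, RIOK1 and COPRS. After the group means were taken out, all 10 correlations were positive, from 0.52 between WDR77 and CLNS1A to 0.87 between PRMT5 and COPRS. The irradiated libraries numbered 1, highest for all 5 genes, enter each of these values. With the mean of the proliferation list, r after the group means were taken out was 0.65 for PRMT5, 0.74 for WDR77, 0.51 for CLNS1A, 0.85 for RIOK1 and 0.52 for COPRS.

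The genes most like each member were the 3 with the highest r over the 12 libraries among 11186 candidates. For PRMT5 they were TNFAIP1, an adaptor of a CUL3 ubiquitin ligase (0.988), RNF14, a ubiquitin ligase known as a coactivator of the androgen receptor (0.985), and UBAP1, a subunit of the ESCRT-I sorting complex (0.980). TNFAIP1 held 39.9 ± 2.24 CPM in non-irradiated controls and 17.4 ± 0.975 in knockdowns, and with irradiation 35.8 ± 3.62 and 15.5 ± 0.227 (SD, n = 3). RNF14 held 101 ± 2.26 and 33.0 ± 3.22 CPM without irradiation and 95.7 ± 9.29 and 36.9 ± 8.30 CPM with it. For WDR77 the leading genes were UQCRFS1, a subunit of respiratory complex III (0.972), UFC1 (0.959) and GNB4 (0.950). For CLNS1A they were EIF3M, a translation initiation factor subunit (0.977), RPL7, a ribosomal protein (0.973), and SET (0.972). RIOK1 was most like PNN (0.945), MIR17HG (0.928) and KIAA1586 (0.923), and COPRS most like ASRGL1 (0.971), HDAC3 (0.971) and DRAP1 (0.970).

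The pathway around the methylosome was described by its fixed lists, each read against all tested genes. A list of 22 genes held Sm proteins and their relatives, the SMN complex, and COIL, STRAP and NCL. None of the 22 genes was called in either knockdown comparison without the block. Their median log2 fold change was 0.24 without and 0.08 with irradiation, against 0.00 and -0.01 for all tested genes. With the block, which called 27.8% of all tested genes without irradiation, 10 of 22 were called higher and none lower, among them the Sm genes SNRPB (0.51, edgeR adjusted p = 0.00486) and SNRPD3 (0.43, adjusted p = 0.00294) and GEMIN4 of the SMN complex (0.53, adjusted p = 0.00286). With irradiation the block called none of the 22. SNRPB then stood at 0.08 (adjusted p = 0.627), SNRPD3 at 0.16 (adjusted p = 0.233) and GEMIN4 at 0.25 (adjusted p = 0.111), and whether the states differ was not called for any gene of the list. In the blocked mean, where 34.3% of all tested genes were called, 10 of 22 were called higher and none lower. NCL, the gene of nucleolin that RIOK1 brings to the complex, was among them (0.16, edgeR adjusted p = 0.0465). Without the block NCL stood at 0.18 without and 0.13 with irradiation (adjusted p = 0.676 and 0.907).

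None of the 11 genes of methyl donor supply and methionine salvage was called for the knockdown without the block. MAT2A, which makes the methyl donor S-adenosylmethionine, stood at -0.17 in the mean (edgeR adjusted p = 0.302) and passed with the block (-0.17, adjusted p = 0.0404), as did the spermine synthase gene SMS (-0.16, adjusted p = 0.0426). These were the 2 of 11 genes called in the blocked mean, where 34.3% of all tested genes were called. MTAP, whose loss makes cells sensitive to PRMT5 inhibition, stood at 0.10 and 0.12 (adjusted p = 0.776 and 0.872). Of the 7 other arginine methyltransferases tested, none was called for the knockdown without the block, and PRMT8 was listed at 0 in every library. With the block, 4 of 7 were called higher and 1 lower without irradiation, where 27.8% of all tested genes were called, 1 higher with irradiation (11.5% of all) and 4 higher and 2 lower in the mean (34.3% of all). PRMT9, the other enzyme that makes symmetric marks, rose by 0.60 in both states (adjusted p = 0.00272 and 0.00554), beside 0.58 and 0.63 without the block (adjusted p = 0.244 and 0.427). Without irradiation PRMT1 (0.29), CARM1 (0.27) and PRMT7 (0.37) rose with the block and PRMT3 fell by 0.38 (adjusted p = 0.00197).

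Among 16 chromatin and transcription partners of PRMT5, SMARCA2, an ATPase of the SWI/SNF remodelling complex, was the 1 gene called without irradiation. It fell by 0.70 ± 0.14 (SE; edgeR adjusted p = 0.0317). With irradiation it stood at -0.55 ± 0.14 (adjusted p = 0.189, and 0.00231 with the block). In the mean of both states SMARCA2 fell by 0.62 (adjusted p = 0.00451), the corepressor TLE1 fell by 1.30 (adjusted p = 0.0221) and the NuRD remodeller CHD4 rose by 0.35 (adjusted p = 0.0176). The block raised the calls of this list from 1 to 6 without irradiation, from 0 to 3 with it and from 3 to 8 in the mean, where it raised the share of all tested genes called to 27.8%, 11.5% and 34.3%. The product of the NF-Y subunit genes binds CCAAT boxes, and its binding before PRMT5 was not measured. In the mean these genes stood at 0.19 (NFYA, adjusted p = 0.127, and 0.00516 with the block), 0.03 (NFYB, adjusted p = 0.881) and -0.09 (NFYC, adjusted p = 0.585).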

How the data were processed

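Per the submitters' processing notes, reads were handled with STAR 2.5, featureCounts, Subread 1.5.3 and edgeR 3.20.8 on GRCh38; per the labels, polyadenylated RNA was sequenced. Each deposited table holds raw counts and the length of every gene; there are 2 tables of 6 libraries, 1 per irradiation state. Strand and multi-mapping settings: not given in the sources used here. The 2 tables were joined by gene identifier.

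Low genes were removed with filterByExpr (at least 10 counts, at least 15 in total) and libraries scaled by TMM. A robust quasi-likelihood model with 1 mean per group was fitted to all 12 libraries in edgeR 4.0.16 (R 4.3.3; 8 residual degrees of freedom, biological coefficient of variation 0.216) and tested on simulated data. Every adjusted p is Benjamini-Hochberg over all 17191 tested genes, called under 0.05. TPM used the deposited lengths. Log2 CPM had a prior count of 2.

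The submitters' replicate numbers pair control and knockdown libraries within a table (6 correlations of 0.233 to 0.775). Across tables the correlations of same-numbered libraries were -0.15 to 0.14, although the libraries numbered 1 had higher basal marker sums in both tables. Alternatives were other scalings, no filter, a replicate block, fewer libraries, leaving out each library, and DESeq2 1.42.0. Named genes were the 5 members, genes overlapping them, up to 4 genes per list with the smallest p or any called, and the 3 genes most like each member with a mean of at least 5 CPM. Members and lists were chosen with earlier results of these data known. The SMS and NF-Y genes, MTAP and NCL were named for their role or block result after their values were seen. Motif matches came from RefSeq windows. Some items are not reported here.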

Additional observations from a re-analysis of the deposited data

How the results depend on the processing

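The PRMT5 knockdown effect kept its direction and its call under all alternatives run, from -2.74 to -2.59 without and from -2.97 to -2.75 with irradiation. Over all results and alternatives, counts of genes included, 438 values stayed the same in direction and side of the threshold or, for counts, within 1.5 times; 51 counts moved further, 17 values changed sign, 14 came to pass the threshold and 9 no longer passed it. With the replicate block the genes called were 4776 without irradiation, 1974 with it, 5894 in the mean, 30 for irradiation in controls and 95 in knockdowns, and main counts were 265, 51, 1120, 389 and 615. The block called WDR77 (-0.31, -0.47 and mean -0.39), CLNS1A (-0.23 and mean -0.19) and COPRS (-0.34 with irradiation and mean -0.26), ended the CLNS1A call for irradiation in knockdowns (0.49, adjusted p = 0.105) and changed no other call of a member. For irradiation the deviations of same-numbered libraries correlated little across the tables, so calls lost there are not read as weaker effects.

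With DESeq2 the counts called were 1034, 249, 2035, 1377, 1438 and, for the difference of knockdown effects, 1, and CLNS1A was called for irradiation in controls (0.40). With only the libraries compared they were 1486 without irradiation, 1 with it, 64 for irradiation in controls and 344 in knockdowns, where CLNS1A stood at 0.49 (adjusted p = 0.0642). Library totals gave 614 genes for irradiation in controls, with PRMT5 at -0.086, and CLNS1A in knockdowns at 0.34. No filter gave 592 genes in controls and CLNS1A in knockdowns at 0.50.

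Leaving out both irradiated libraries numbered 1, chosen after seeing the data, gave 326 genes with irradiation and 3378 in the mean, with mean effects of -0.34 for WDR77, -0.21 for CLNS1A (both then called) and -0.0188 for RIOK1. With the block as well there were 1847 and 5975 genes, with WDR77 at -0.35 with irradiation and means of -0.33 for WDR77, -0.21 for CLNS1A, -0.0180 for RIOK1 and -0.22 for COPRS.

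Leaving out each library in turn gave 31 to 341 genes for the knockdown without irradiation (the fewest without the knockdown numbered 2), 4 to 254 with it (4 without the irradiated knockdown numbered 3, 254 without the irradiated control numbered 1), 440 to 2780 in the mean, 24 to 341 for irradiation in controls and 76 to 280 in knockdowns. RIOK1 ranged from -0.13 to 0.055 for the knockdown without irradiation, from -0.080 to 0.20 with it and, in the mean, from -0.061 to 0.080. COPRS ranged from -0.76 to 0.13 for the knockdown with irradiation, from -0.12 to 0.60 for irradiation in controls and from -0.18 to 0.37 in knockdowns. WDR77 ranged from -0.66 to -0.20 for the knockdown with irradiation, from -0.49 to -0.26 in the mean and from 0.26 to 0.72 for irradiation in controls. For irradiation PRMT5 ranged from -0.039 to 0.14 in controls and CLNS1A from 0.41 to 0.57 in knockdowns. The difference of knockdown effects ranged from -0.34 to 0.13 for WDR77, -0.038 to 0.25 for RIOK1 and -0.58 to 0.32 for COPRS, all uncalled. The cause of each change was not tested.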

Other observations

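After the group means were taken out, the genes most like each member differed from those above, over the same 12 libraries and 11186 candidates, and the irradiated libraries numbered 1 enter each value. PRMT5 was then most like ANAPC15, a subunit of the anaphase-promoting complex (r = 0.987), HMGB3 (0.985) and NOLC1, a nucleolar protein (0.974). WDR77 was most like PNP, the purine nucleoside phosphorylase (0.984), POP1, a subunit of RNase P (0.983), and ABCB6 (0.980). CLNS1A was most like ZNF583 (0.960), ENOPH1, an enzyme of methionine salvage (0.958), and NIFK (0.943). For RIOK1 the first was ZNF273 (0.965), and COPRS was most like TAOK3 (0.994), NELFE (0.994) and NDUFAF3 (0.993).

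Of the 4 fibroblast markers tested, COL3A1 was higher in the mean knockdown effect, at a log2 fold change of 1.86 ± 0.32 (SE; edgeR adjusted p = 0.00721), and with the block LUM was lower (-0.61, adjusted p = 0.0462). Both were low genes, at mean levels of 1.44 CPM for COL3A1 and 1.08 CPM for LUM. Of all tested genes, 6.52% were called in the mean without the block and 34.3% with it. PDGFRB stood at -0.77 (adjusted p = 0.0532) and COL1A1 at 0.18 (adjusted p = 0.108) with the block, and COL1A2 had a count of 0 in all 12 libraries.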
